A study of Mus musculus with 2 samples.

Results

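The choroid plexus epithelium was studied as the barcodes that carried its 4 defining genes: Folr1, a folate receptor, Clic6, a chloride channel protein, Kcnj13, an inward-rectifier potassium channel, and Kl, which encodes klotho. A barcode stands for 1 droplet, and each UMI (molecular identifier) for 1 counted RNA molecule. The members were chosen by these measured counts: of the kept barcodes (no fewer than 1000 UMIs and 500 genes, mitochondrial UMIs up to 20%), those in which the 4 genes together had at least 8 UMIs and at least 0.1% of all UMIs. This gave 876 members of 27740 kept barcodes, 312 of 13745 in the metastasis library and 564 of 13995 in the naive library. Ttr, the transthyretin gene, played no part in the choice, because free RNA carries it into other barcodes.

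The samples were suspensions of whole brains of C57BL/6J mice, 10 weeks old, each a pool of 3 brains, cleared of myelin with percoll and then enriched on beads that bind ACSA-2, an astrocyte antigen encoded by Atp1b2. The metastasis group had received intracranial injections of B16/F10-BrM, a mouse melanoma line that grows in the brain. The naive group carried no tumour according to its title. After release the submitters swapped the 2 record titles, and the current titles set the groups used here. Each group was 1 library, so no difference could be compared with the spread between animals, no test was made, and every interval is a 95% interval of counting error only. Sequencing gave 89193669 UMIs for the metastasis library and 69445557 for the naive one. The libraries shared 53 kept barcodes, and 0 of them among the members.

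The choroid plexus is a folded tissue that hangs into the brain ventricles, a core of vessels and connective tissue under a layer of epithelial cells. These cells secrete the cerebrospinal fluid by moving sodium, chloride, bicarbonate and water, release carrier proteins such as transthyretin into it, and form the barrier between blood and fluid with tight junctions. In inflammation the same epithelium can display adhesion molecules and make chemokines and antimicrobial proteins such as lipocalin 2, and it is a site where leukocytes can enter the fluid.

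Not every member carried the signature of this epithelium. In metastasis, 49 of the 312 members had at least 1% of their UMIs from the melanoma markers (Pmel, Mlana, Tyr, Dct, Tyrp1, Slc45a2 and Mitf), against 2 of 564 in naive. Over these 49 barcodes Kcnj13 took 94.2% of the UMIs of the 4 genes, while Folr1 was seen in 13 of them, Clic6 in 6 and Kl in 5. In 45 of the 49, Kcnj13 took at least 95.1% of those UMIs and Ttr at most 0.240% of all UMIs, so for these 45 the data go against the label. In the other 4, Kcnj13 took 14.3 to 24.4% and Ttr at least 6.70%. All 49 are called members with melanoma genes. Among all kept barcodes with at least 1% melanoma UMIs, Kcnj13 made up 91.7% of the UMIs of the 4 genes over 754 barcodes in metastasis and 73.7% over 20 barcodes in naive, where the median was 29678 UMIs.

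Other members held markers of a further cell type beside those of the epithelium. A marker list of another type reached at least 8 UMIs and at least 0.1% of UMIs in 130 members of each library. In metastasis these were mostly the melanoma list (49 members), the microglia list (36), the macrophage and monocyte list (19), the oligodendrocyte list (18) and the mural list (15). In naive they were the oligodendrocyte list (46), the ependymal list (37), the microglia list (19), the endothelial list (18) and the mural list (18). Without these barcodes, 182 members in metastasis and 434 members in naive remained, called single-type members. Each single-type member had at least 5% Ttr, with medians of 30.1% of UMIs in metastasis (10th to 90th percentile, 18.4 to 39.8%) and 33.5% in naive (22.8 to 44.1%). All 4 genes were seen in 169 of the 182 and 397 of the 434. Because the composition of the members differed between libraries, each result is given for all members and for the single-type members.

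**Figure D1:**
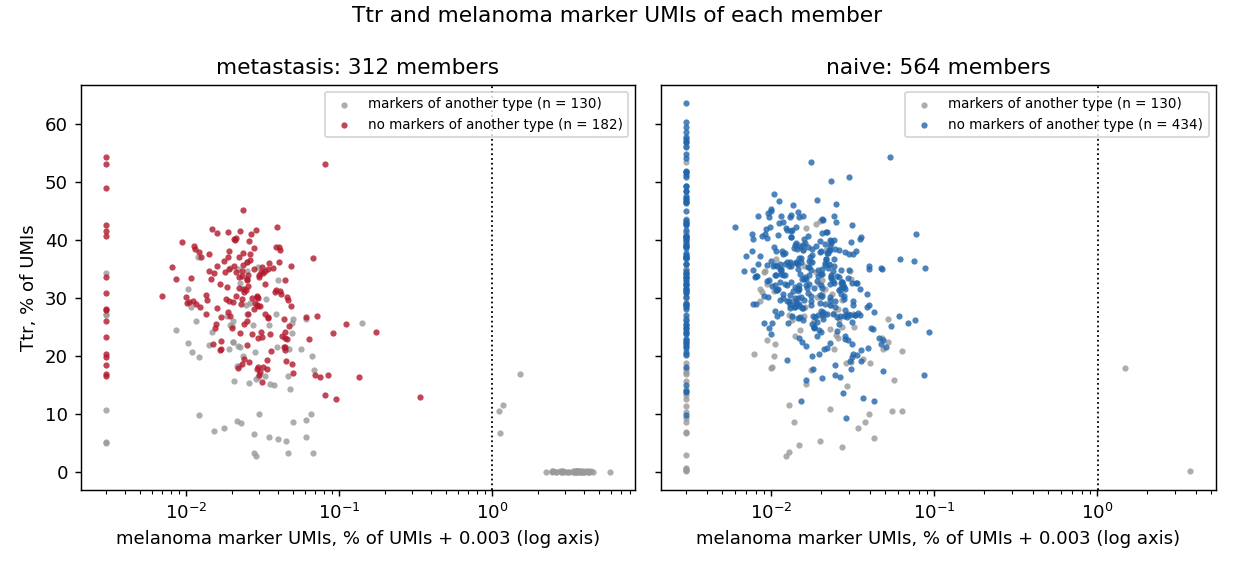
Each point is 1 member, with its melanoma marker UMIs (percent of UMIs plus 0.003, log axis) across and Ttr (percent of UMIs) upward, for the 312 members in metastasis and the 564 in naive. Grey points carry markers of another cell type, the dotted line marks 1% melanoma UMIs, and a cluster of metastasis members with almost no Ttr lies to the right of it.

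The members were among the deepest barcodes of the suspension. Single-type members had medians of 12846.5 UMIs and 3380.5 genes in metastasis and 13551.5 UMIs and 3299.5 genes in naive, while all kept barcodes had medians of 2859 and 2821 UMIs. The members with melanoma genes were deeper still, with a median of 23416 UMIs. At the edge of the rule, 13 and 25 members had only 8 or 9 UMIs of the 4 genes, and 27 and 44 barcodes with 6 or 7 UMIs lay just outside, with median Ttr of 21.7% and 19.8%. A further 58 and 92 kept barcodes outside the rule had at least 15% Ttr, with medians of 1569.5 and 1877 UMIs, so barcodes rich in Ttr that the rule left out were shallow. At the other threshold, 13 and 3 members had 0.1 to 0.12% of UMIs from the 4 genes, and 15 and 5 barcodes with 0.08 to 0.1% lay outside; melanoma genes were present in 11 of the 13 and 11 of the 15 in metastasis.

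The genes that set the single-type members apart from all other kept barcodes are a description, since the rule chose the cells. The leading genes were Kl, Htr2c, the serotonin 2C receptor, Prlr, the prolactin receptor, Trpm3, a cation channel, Ttr, Sostdc1, a secreted inhibitor of BMP and Wnt signals, 2900040C04Rik, Kcne2, a potassium channel subunit, Tmem72 and F5, coagulation factor V. Prlr had 1193 CPM (UMIs of the gene per 1000000 UMIs of the set) for metastasis and 1523 CPM for naive, against 10.6 and 24.2 CPM in the other kept barcodes. Htr2c had 775 and 862 CPM in the single-type members against 4.39 and 7.56 CPM elsewhere. Atp1b2, whose product the beads bind, was low in the members, with 63.2 and 79.9 CPM in the single-type members against 234 and 205 CPM in ependymal barcodes.

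The first comparison asked how large a share of the suspension the epithelium took with and without tumour. All members made up 2.27% (2.03 to 2.53%) of kept barcodes in metastasis and 4.03% (3.71 to 4.37%) in naive. Single-type members made up 1.32% (1.14 to 1.53%) and 3.10% (2.82 to 3.40%). The naive share was the larger by either count, beyond counting error. Bead enrichment and dissection act on such shares, and with 1 pool a group they cannot be told apart from a difference between the brains. Free Ttr in barcodes of 10 to 100 UMIs ran in the same direction, at 78278 CPM for metastasis and 215609 CPM for naive.

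The second comparison asked which functions of the epithelium differed. Most measured genes that make fluid, carry solutes and seal the barrier lay within 2-fold between the libraries once mixed members were left out, as did most measured genes of all kinds. A gene counts as higher or lower here when its CPM differ at least 2-fold, a rule of size, among genes with at least 20 UMIs over both libraries, and log2 ratios are metastasis over naive. Over all genes, 1756 of 13098 measured were higher in metastasis in all members (13.4%) and 213 were lower (1.63%). In single-type members 239 of 11320 were higher (2.11%) and 118 lower (1.04%). The median log2 ratio of all measured genes was 0.21 in all members and 0.09 in single-type members. With only the members with melanoma genes left out, 655 of 12612 were higher (5.19%) and 159 lower (1.26%).

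The counts of the following function lists lay near these shares of all genes or rested on 1 or 2 genes, and nothing particular to the lists is read from them. Of 24 secreted proteins and carriers, 22 were measured, 1 was higher and 0 lower, with a median log2 ratio of 0.0047, against -0.41 in all members. Ttr, the most abundant, had 319943 and 347908 CPM, a ratio of -0.12 (-0.12 to -0.12). Enpp2, which encodes autotaxin, the enzyme that makes lysophosphatidic acid, had 28109 and 27972 CPM, a log2 ratio of 0.01 (-0.01 to 0.02). Igfbp2, a carrier of insulin-like growth factors, had 1516 and 1624 CPM, and Sostdc1 had 1599 and 1649 CPM. The iron carrier gene Trf had 220.0 and 160.0 CPM, a ratio of 0.46 (0.31 to 0.61). The gene counted as higher was Igf2, insulin-like growth factor 2, with 13 and 13 UMIs, a log2 ratio of 1.26 (0.03 to 2.48). Of the 21 genes of the list with at least 20 UMIs in naive, 0 were higher. In all members Ttr had 221572 and 331062 CPM, a log2 ratio of -0.58 (-0.58 to -0.58), and the members with melanoma genes, with a median Ttr of 0.103%, are part of that sum.

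Of 24 genes of ion and water transport, 21 were measured and 0 were past 2-fold in single-type members, beside 2.11% higher and 1.04% lower over all genes, with a median log2 ratio of -0.088, and 0 of 22 in all members, with a median of -0.45. Aqp1, the water channel of the apical membrane, had 131 and 136 CPM, a ratio of -0.05 (-0.24 to 0.13). Car2, a carbonic anhydrase that supplies bicarbonate, had 514 and 445 CPM, a ratio of 0.21 (0.11 to 0.30), and Car12, a membrane-bound one, had 311 and 356 CPM, a ratio of -0.19 (-0.31 to -0.08). Kcne2 had 495 and 564 CPM, -0.19 (-0.28 to -0.10), and the potassium-chloride cotransporter gene Slc12a7 21.1 and 14.8 CPM, 0.51 (0.00 to 1.01). The rule genes chose the cells by their share of UMIs, and nothing is read from their levels.

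Carriers of nutrients and drugs had 0 of 22 measured genes past 2-fold in single-type members and 0 of 24 in all members, with medians of -0.012 and -0.42. The vitamin C carrier gene Slc23a2 had 227 and 259 CPM, a log2 ratio of -0.19 (-0.33 to -0.05). Slc22a8, an organic anion carrier that clears drugs from the fluid, had 44.5 and 51.8 CPM, -0.22 (-0.54 to 0.09), and the nucleoside carrier gene Slc28a3 had 23.4 and 18.1 CPM, 0.37 (-0.11 to 0.83). Of the transcription factors of the lineage, 0 of 9 measured were past 2-fold in either set, with medians of 0.16 and -0.20. Otx2, the factor that specifies the choroid plexus, had 358 and 325 CPM, a ratio of 0.14 (0.02 to 0.25), and Msx1 had 318 and 246 CPM, 0.37 (0.25 to 0.49).

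Receptors for hormones and transmitters had no member past 2-fold either, 0 of 11 measured in both sets, with medians of -0.15 in single-type members and -0.48 in all members. The lowest ratio of the list was that of Prlr, at -0.35 (-0.41 to -0.29) in single-type members, and 840 and 1502 CPM in all members, a ratio of -0.84 (-0.89 to -0.79). The size of the difference in Prlr changed with depth: it was -0.15 (-0.28 to -0.01) in single-type members below 10000 UMIs, 77 and 152 barcodes, and -0.41 (-0.48 to -0.35) in those from 10000 UMIs, 105 and 282 barcodes. Htr2c had a ratio of -0.15 (-0.23 to -0.08), Insr, the insulin receptor, -0.34 (-0.76 to 0.06) and Lepr, the leptin receptor, 0.29 (-0.04 to 0.61).

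Junctions and adhesion molecules had 2 of 16 measured genes higher and 0 lower in both sets, with medians of -0.027 in single-type members and -0.15 in all members. The tight junction genes were within 2-fold: Cldn2 had 221 and 242 CPM, a log2 ratio of -0.13 (-0.27 to 0.01), Cldn1 79.3 and 89.5 CPM, -0.17 (-0.41 to 0.06), and F11r, the junctional adhesion molecule A gene, 29.1 and 40.3 CPM, -0.47 (-0.86 to -0.09). Both higher genes encode leukocyte adhesion molecules. Of the 15 genes with at least 20 UMIs in naive single-type members, only Icam1 was higher, and Madcam1 passed the minimum through metastasis. Icam1 had 29 and 24 UMIs in single-type members, 11.1 and 3.85 CPM, a log2 ratio of 1.53 (0.70 to 2.37), and Madcam1 21 and 7 UMIs, 8.05 and 1.12 CPM, 2.84 (1.55 to 4.32). Madcam1, which binds an integrin of gut-homing lymphocytes, was close to absent from the ependymal barcodes, with 2 and 0 UMIs. Vcam1, the ligand of integrin alpha 4 beta 1, was much more abundant, with 147 and 106 CPM, and differed less, 0.47 (0.29 to 0.65). Vcam1, Ifitm3, Ifi27l2a, Ifi35 and Irf9 were chosen for the text after their values were seen. Vcam1, Ifitm3 and Ifi27l2a lay outside the naming rule given below.

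**Figure D2:**
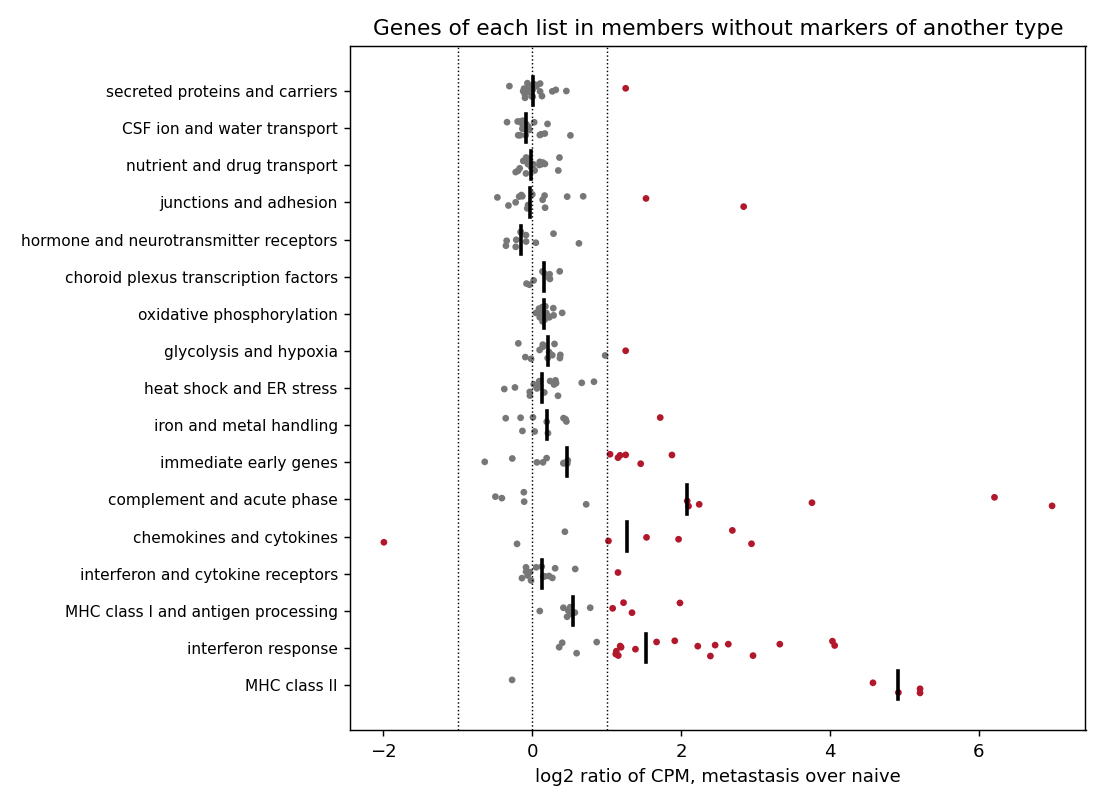
Each point is a gene with at least 20 UMIs over both libraries in the 182 and 434 single-type members, placed by its log2 ratio of CPM, metastasis over naive, with 1 row per gene list. Black bars are list medians, dotted lines mark ratios of 0 and 2-fold either way and red points lie past 2-fold, which few do among transport and secretion genes (medians from 0.0047 to -0.088) and most do in the interferon response (median 1.53).

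The third comparison asked whether immune and acute phase genes differed in the epithelium. Of 35 interferon response genes, 20 were measured in single-type members, and 16 of them were higher and 0 lower in metastasis, with a median log2 ratio of 1.53. The minimum of 20 UMIs is over both libraries, so 15 genes were not measured, and a gene scarce in naive could pass through its metastasis UMIs. Of the 12 genes with at least 20 UMIs in naive alone, 8 were higher and 0 lower. In all members 28 of 30 were higher, with a median of 2.68. These shares compare with 2.11% and 13.4% of all measured genes. Summed over the list, single-type members had 1527 and 819 CPM. From the marker lists of 12 other cell types, free RNA was estimated at 6.50% of the UMIs of single-type members in metastasis and 7.22% in naive, which would give the list 234 and 91.3 CPM. These percentages are medians, and single lists in metastasis ran from 2.38 to 104%, with 18.3% for the ependymal list. At the median, all 20 measured genes were above the level free RNA would give. At the ependymal percentage 14 of the 20 were, and 1 was above the level of free RNA itself.

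The 4 measured genes within 2-fold were Ifi27, Ifi35, Irf9 and Bst2. Ifi27, a mitochondrial interferon-induced protein gene, was the most abundant of those named, with 716 and 557 CPM, a ratio of 0.36 (0.28 to 0.44). Bst2, which encodes tetherin, a factor that holds budding virus on the cell, had 221 and 121 CPM, 0.87 (0.71 to 1.02). Ifi35 had 36 and 65 UMIs, 0.40 (-0.23 to 1.01), and Irf9, a factor of the interferon signal, 38 and 60 UMIs, 0.60 (-0.03 to 1.21). Ifitm3, an antiviral membrane protein gene, had 766 UMIs over the 182 members and 348 over the 434, or 294 and 55.8 CPM, a ratio of 2.39 (2.21 to 2.58). Ifi27l2a had 87.8 and 23.3 CPM, 1.92 (1.61 to 2.23). Isg15, a ubiquitin-like modifier, had 48 and 7 UMIs, 18.4 and 1.12 CPM, 4.03 (2.88 to 5.42). The guanylate-binding protein gene Gbp3 had 21 and 3 UMIs, 4.06 (2.32 to 6.45), the Ifit3 gene 21 and 5 UMIs, 3.33 (1.88 to 5.09), and the GTPase gene Iigp1 17 and 0 UMIs. Iigp1 is below the minimum of 20 UMIs and is not among the 20 measured genes. Its ratio was 13.5-fold with the 0 set to a floor of 3 UMIs over the library's members, a value that depends on the floor. Few cells held much of this RNA in metastasis. There 5 barcodes had 64.6% of the UMIs of Isg15, 64.7% of Iigp1, 52.4% of Gbp3 and 48.5% of Ifi27l2a. For Ifitm3 and Bst2 the shares were 36.0% and 25.4%. The counting intervals do not cover this unevenness. With free RNA subtracted from the single-type members as well, the log2 ratio of Ifitm3 was 3.26, that of Isg15 4.39 and that of Iigp1 2.04. The value for Iigp1, with 0 UMIs in naive, again depends on the floor.

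The interferon-stimulated response element, to which STAT and IRF factors bind, has a core made of GAAA, any 2 bases and GAAA again. This core was searched on both strands in the 250 bases before each RefSeq transcription start (GRCm38.p6), with overlapping matches counted. At least 1 match was present in 2.98% of all 32851 promoters and in 3.46% of the 27025 genes with a promoter. Of the 20 interferon genes measured in single-type members, 16 had a promoter in the table and 10 of these held the core, namely Isg15, Ifit1, Ifit3, Bst2, Stat2, Rsad2, Igtp, Irgm2, Gbp3 and Gbp7. It was present in 3 of 11 genes of MHC class I and antigen processing (B2m, H2-T22 and H2-T23), in 1 of 12 secreted proteins and carriers (Vegfa) and in 0 of 15 genes of ion and water transport. The 250 bases before the start are shown for 5 genes of the interferon and class I lists. These were picked from the genes that held the core, so they do not stand for the lists, and Bst2 was within 2-fold. Gbp3 had 2 promoters, and only the promoter with the core is shown. Sequences run 5′ to 3′ on the strand of the gene, with the core in capitals on either strand. Isg15 lies at chr4:156200819-156201068, minus strand, Ifit3 at chr19:34583279-34583528, plus strand, Gbp3 at chr3:142559794-142560043, plus strand, Bst2 at chr8:71537473-71537722, minus strand, and B2m at chr2:122147437-122147686, plus strand.
Isg15: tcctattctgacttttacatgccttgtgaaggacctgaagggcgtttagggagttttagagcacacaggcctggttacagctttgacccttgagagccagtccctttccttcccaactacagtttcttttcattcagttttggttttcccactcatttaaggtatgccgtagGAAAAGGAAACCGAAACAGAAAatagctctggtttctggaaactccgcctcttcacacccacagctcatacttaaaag
Ifit3: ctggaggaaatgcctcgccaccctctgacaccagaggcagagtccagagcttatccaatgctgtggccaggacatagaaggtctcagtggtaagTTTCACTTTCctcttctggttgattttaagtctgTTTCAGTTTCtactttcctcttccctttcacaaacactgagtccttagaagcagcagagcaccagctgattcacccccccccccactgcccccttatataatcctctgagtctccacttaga
Gbp3: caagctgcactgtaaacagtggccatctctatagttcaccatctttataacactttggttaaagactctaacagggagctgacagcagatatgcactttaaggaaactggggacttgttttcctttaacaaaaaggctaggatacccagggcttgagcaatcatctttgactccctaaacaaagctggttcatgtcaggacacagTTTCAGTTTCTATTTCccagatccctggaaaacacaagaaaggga
Bst2: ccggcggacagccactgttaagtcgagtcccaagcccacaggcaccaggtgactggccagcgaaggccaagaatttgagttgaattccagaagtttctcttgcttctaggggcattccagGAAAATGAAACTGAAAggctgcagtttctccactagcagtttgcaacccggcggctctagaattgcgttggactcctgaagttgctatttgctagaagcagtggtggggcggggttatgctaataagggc
B2m: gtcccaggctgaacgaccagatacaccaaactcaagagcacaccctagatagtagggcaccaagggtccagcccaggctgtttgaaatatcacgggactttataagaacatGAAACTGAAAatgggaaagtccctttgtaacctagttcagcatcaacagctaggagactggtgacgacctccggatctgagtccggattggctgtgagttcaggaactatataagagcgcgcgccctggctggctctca
In Isg15 the 3 matches overlap in 1 run that ends 56 bases before the start, and in Bst2 and Gbp3 the 2 matches overlap likewise. A match describes the letters of the promoter and was not tied to binding in these cells.

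Genes of MHC class I and antigen processing, which show peptides to CD8+ T cells, had a lower median ratio. In single-type members 4 of 12 measured genes were higher and 0 lower, with a median log2 ratio of 0.54, and in all members 10 of 16, with a median of 1.46. Over all measured genes, 2.11% were higher in single-type members and 13.4% in all members. B2m, the light chain of class I, had 174 and 68.7 CPM in single-type members, a ratio of 1.34 (1.15 to 1.53). The heavy chain genes H2-K1 and H2-D1 had 133 and 56.6 CPM, 1.23 (1.01 to 1.45), and 48.3 and 12.2 CPM, 1.99 (1.56 to 2.42). H2-T23 had 31 and 35 UMIs, 1.08 (0.34 to 1.82). The peptide loading gene Tapbp and the proteasome activator gene Psme1 had ratios of 0.47 (0.20 to 0.73) and 0.48 (0.27 to 0.70). At the ependymal percentage of free RNA, 9 of the 12 genes were above the level it would give, but B2m and H2-D1 were not. At the median, free RNA would give B2m 74.8 CPM, H2-K1 45.2 CPM and H2-D1 39.8 CPM in the single-type members there, against 10.7 CPM for B2m and 7.57 CPM for H2-K1 in naive. With free RNA subtracted, the ratios of these genes were below 2-fold, at 0.76 for B2m, 0.82 for H2-K1, 0.23 for H2-D1 and 0.69 for H2-T23. Heavy chain genes are close copies of each other, so reads may be split among them.

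**Figure D3:**
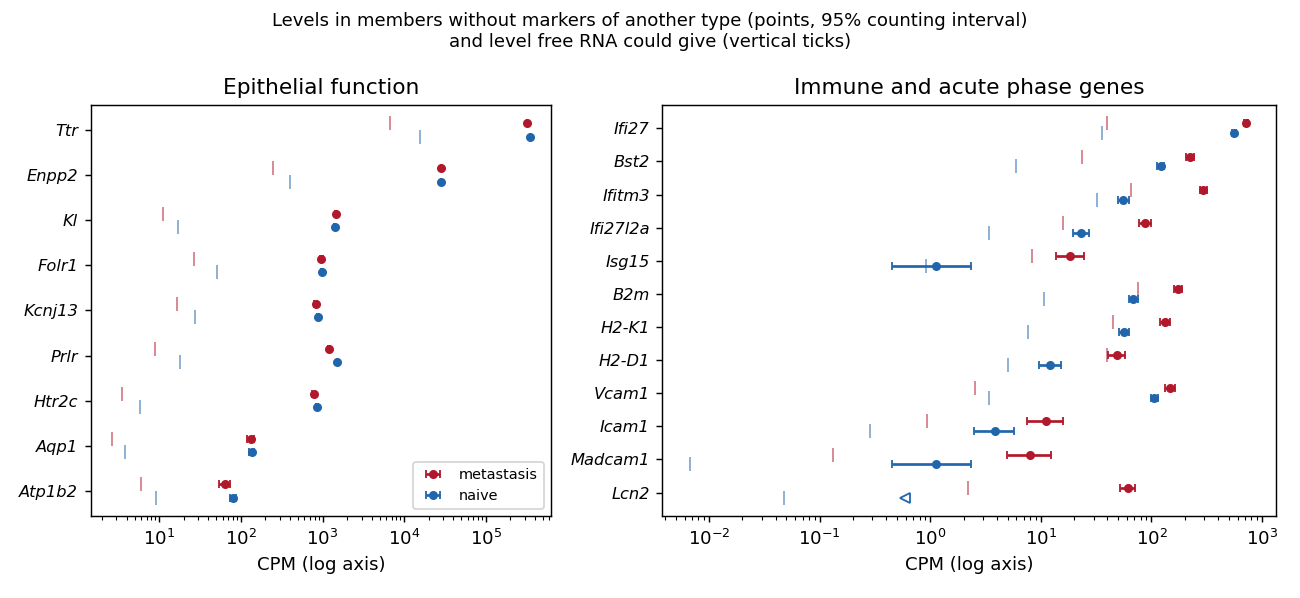
Points are CPM (log axis) of each gene summed over single-type members, metastasis in red and naive in blue, with exact 95% counting intervals, and pale ticks are the CPM that free RNA would give. The open triangle is the upper limit for Lcn2 in naive, where it had 0 UMIs. Levels of the epithelial genes lie within 2-fold of each other, and those of the rule genes are not read, because these genes chose the cells. Levels of most immune genes are further right in metastasis.

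Lcn2, which encodes lipocalin 2, an iron-binding protein of the acute phase, had the largest difference of any gene ranked in single-type members. Its UMIs numbered 159 in metastasis, or 60.9 CPM, and 0 in naive, a 127-fold ratio with the 0 set to 3 UMIs. That ratio depends on the floor and is not a lower bound. In all members it had 220 UMIs and 1 UMI, a log2 ratio of 8.48 (5.99 to 13.79). The gene lies at chr2:32384633-32388252 on the minus strand. The RNA was held by few cells: 17 of the 182 members had a UMI of it, and 2 of them, with 60 and 57 UMIs, held 73.6% of the total. The other 15 had 1 to 10 UMIs. All 17 were rich in Ttr, from 16.3 to 41.8% of UMIs, and the 2 highest had 34.5% and 30.4%. Those 2 were also deep, with 49254 and 24970 UMIs against a median of 12846.5 in single-type members in metastasis. Whether either held more than 1 cell was not tested. Without those 2 barcodes the level was 16.6 CPM, above the 2.20 CPM that free RNA would give. In ependymal barcodes Lcn2 had 317 UMIs and 1 UMI.

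The interferon response was also uneven among the single-type members. List UMIs had a median of 10.2 per 10000 UMIs in metastasis and 7.21 in naive, but the 90th percentiles were 29.1 and 12.7. Free RNA is not subtracted from these values. Its median estimate for the list was larger in metastasis, at 234 CPM against 91.3 CPM in naive, and its part in the gap between the medians was not tested. At least 20 per 10000 were found in 28 of 182 members in metastasis, 15.4% (10.5 to 21.5%), and in 5 of 434 in naive, 1.15% (0.375 to 2.67%). This is a range and not a type, and 25 and 21 members lay between 15 and 25 per 10000. The 28 members in metastasis had Ttr from 16.8 to 41.8% with a median of 31.6%, close to the 30.1% of all single-type members there. With each barcode thinned to 5000 UMIs, which left out 34 and 62 shallower members, the medians were 5 and 4 UMIs, the 90th percentiles 15 and 7.90 UMIs and the highest values 55 and 41 UMIs. Of the 28, 4 had a UMI of Lcn2.

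**Figure D4:**
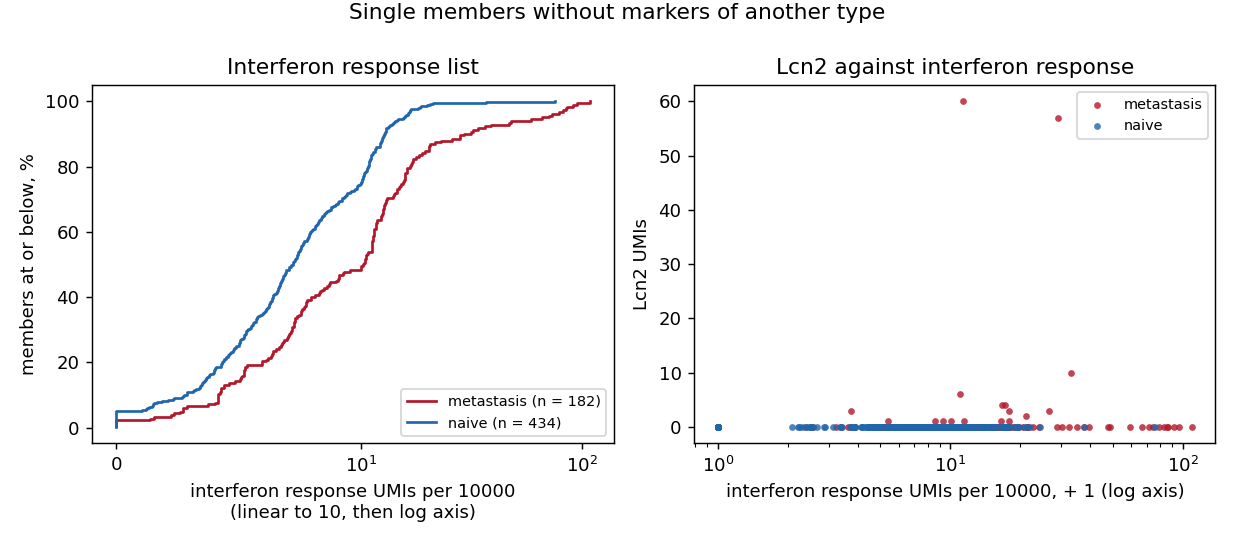
Left, the percent of single-type members at or below each level of interferon response UMIs per 10000 UMIs (linear to 10, then log axis), for 182 members in metastasis and 434 in naive. Right, Lcn2 UMIs of each member against the interferon level plus 1 (log axis). The metastasis curve lies to the right of the naive one (90th percentiles of 29.1 and 12.7), and the 2 members with 60 and 57 Lcn2 UMIs stand apart from the other points.

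Shares of members with a UMI at equal depth gave the same order for the abundant genes. Thinned to 5000 UMIs, Ifitm3 was seen in 48.0% (39.7 to 56.3%) of 148 single-type members in metastasis and 22.3% (18.2 to 26.9%) of 372 in naive, and unthinned in 67.6% and 41.2%. In oligodendrocyte barcodes, thinned alike, the shares were 17.0% of 564 in metastasis and 9.22% of 575 in naive. Those are the deepest of 5404 and 5646 oligodendrocyte barcodes, which had unthinned medians of 2739 and 2970 UMIs. B2m was seen in 55.4% (47.0 to 63.6%) and 26.1% (21.7 to 30.9%) of the members, unthinned in 74.2% and 55.5%, against 35.3% and 15.7% of oligodendrocyte barcodes. H2-D1 was seen in 22.3% and 5.38% of the members, less than the 28.4% of oligodendrocyte barcodes in metastasis, so its share is not read as expression. Isg15 was seen in 6.76% (3.29 to 12.1%) and in 0 of 372 (0 to 0.987%), against 2.30% and 0% of oligodendrocyte barcodes.

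Ependymal cells, the ciliated lining of the same ventricles, had larger ratios for most of these genes. Ependymal barcodes were kept barcodes with at least 8 UMIs and 0.1% of UMIs from 8 ependymal markers and with no other list that high, 1605 in metastasis and 2209 in naive, at medians of 2868 and 2824 UMIs. There 31 of 33 measured interferon genes were higher, with a median log2 ratio of 3.15, and 14 of 18 class I genes, with a median of 3.21, while 3.3% of 14614 genes were higher and 1.39% lower over all genes. Ifitm3 and Rtp4, the latter named after its values were seen, had the larger ratio in the choroid plexus. Ifitm3 had 1.48 (1.44 to 1.53) in ependymal barcodes and 2.39 (2.21 to 2.58) in single-type members, and its level was higher in ependymal barcodes, at 2909 and 1040 CPM. B2m had 4.31 (4.11 to 4.51) and H2-K1 3.14 (3.05 to 3.23) in ependymal barcodes. Bst2 had 3.39 (3.20 to 3.58) there, from a naive level of 37.2 CPM that was below the 121 CPM of the choroid plexus members. Free RNA is not subtracted in these ratios, and ependymal barcodes carried it too. Lyz2 was seen, unthinned, in 39.1% of them in metastasis and 1.04% in naive. With 1 library a group, the gap between both cell types was not tested.

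**Figure D5:**
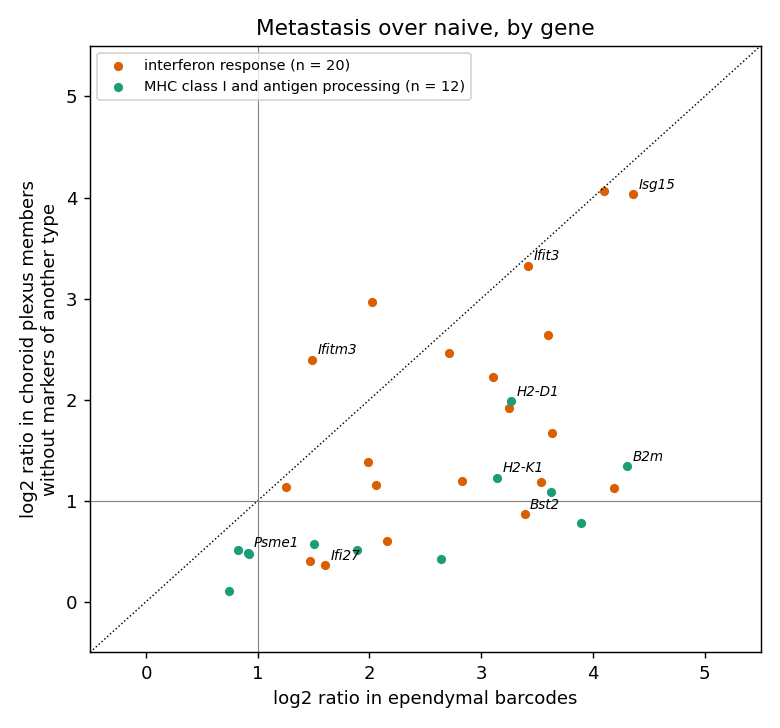
Each point is a gene measured in both cell types, with the log2 ratio, metastasis over naive, in ependymal barcodes across and in single-type choroid plexus members upward. The dotted line marks equal ratios and the grey lines mark 2-fold. Of the 20 interferon genes all but Ifitm3 and Rtp4 lie below the dotted line, as do all 12 class I genes.

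Other immune lists in the single-type members rested on few UMIs. Over all measured genes of these members, 2.11% were higher and 1.04% lower. Of MHC class II genes 4 of 5 measured were higher, but only 1 of the 5, H2-DMb1, had 20 UMIs in naive, so the others passed the minimum through metastasis. Cd74, the invariant chain, had 50 and 5 UMIs, H2-Ab1 38 and 3 UMIs and H2-Aa 31 and 2 UMIs, while H2-DMb1 had 25 and 72 UMIs. For Cd74, 56.0% of the UMIs came from 5 barcodes, the metastasis level of 19.2 CPM was less than the 24.9 CPM free RNA would give, and it was seen in 5.41% of thinned members against 7.98% of oligodendrocyte barcodes. Of chemokines and cytokines 5 of 8 were higher and 1 lower, and 3 and 1 of the 6 with 20 UMIs in naive. Ccl4 had 71 and 22 UMIs, 27.2 CPM in metastasis against 30.2 CPM from free RNA, and Ccl12 and Ccl2, attractants of monocytes, had 17 and 2 UMIs and 13 and 0 UMIs, below what free RNA would give. Cxcl12, a chemokine of stromal and vascular cells, was the lower one, with 6 and 57 UMIs, a log2 ratio of -1.99 (-3.50 to -0.78). Of complement and acute phase genes 6 of 11 were higher, 3 of the 6 with 20 UMIs in naive. The 6 higher genes included C3, the central complement component, with 17 and 3 UMIs, and Spp1, osteopontin, with 31 UMIs and 1 UMI, its 11.9 CPM in metastasis below the 30.0 CPM from free RNA.

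Markers of other cells moved with these lists. The macrophage and monocyte list summed to 78.6 and 4.33 CPM in single-type members, with 0 and 5 of its 8 genes at 0, against 148 CPM that free RNA would give in metastasis. The microglia list summed to 103 and 63.1 CPM, with none of its 8 genes at 0, against 177 and 76.5 CPM from free RNA. Lyz2, the macrophage lysozyme gene, had 178 and 10 UMIs and was seen in 26.4% and 1.08% of thinned members, less than the 37.8% of oligodendrocyte barcodes in metastasis. The part of these cells in the immune results was not tested.

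In single-type members, heat shock and ER stress genes had 0 of 16 past 2-fold, with a median of 0.13: the ER chaperones Calr and Hsp90b1 had ratios of -0.37 (-0.44 to -0.31) and -0.23 (-0.29 to -0.17), and the inducible chaperone gene Hspa1b 0.83 (0.44 to 1.22). Oxidative phosphorylation had 0 of 18 past 2-fold, with a median of 0.15, and glycolysis and hypoxia 1 of 16, with a median of 0.22. Of the 15 genes of glycolysis and hypoxia with at least 20 UMIs in naive, 0 were past 2-fold. Over all measured genes, 2.11% were higher and 1.04% lower. Of iron and metal genes 1 of 11 was higher, Hmox1, heme oxygenase, with 40 and 29 UMIs, 1.72 (0.99 to 2.46). Of immediate early genes, which dissociation induces, 6 of 15 were higher, and 5 of the 14 with at least 20 UMIs in naive, which leave out Atf3. At the median estimate of free RNA, 11 of the 15 were above the level it would give in metastasis. At the ependymal percentage 4 were, and 0 were above the level of free RNA itself. Fos had 57.1 and 25.2 CPM, 1.18 (0.85 to 1.51), Junb 1.26 (0.66 to 1.85) and Atf3 1.88 (0.80 to 3.01). In all members the medians of these lists were 0.15, 0.49, 0.70, 0.84 and 1.54, in the order given.

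Ranked over all genes with at least 100 UMIs that were above free RNA, with 10 CPM added to both levels, the extremes depended on the set. In all members, 3697 genes ranked, the highest were Syt4, Gpnmb, Trpm1, Phlda1, Met, Cited1, Tspan10, Mgll, Cited2, Cyb5a, Eps8 and Zfp575. Syt4, with 3311 and 64 UMIs in all members, had 14 UMIs and 1 UMI in single-type members, and Trpm1, a channel of pigment cells, had 911 and 11 UMIs and then 5 and 0. Met, a growth factor receptor, went from 717 and 9 UMIs to 5 and 1, and Gpnmb, a melanosome glycoprotein, from 2227 and 44 UMIs to 33 and 13. Nearly all UMIs of these genes thus lay in members with markers of another type. The lowest in all members were Myh11, Cxcl12, Prlr, Hs6st2, Slc5a3, Rn7sk, Gabra4, Reep1, Cntn1, Frem1, Gabrb1 and Kcnh2, of which Myh11, smooth muscle myosin, had 6 and 110 UMIs in all members and 2 and 6 UMIs in single-type members.

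In single-type members, 2982 genes ranked, and the differences were small apart from Lcn2. Dlk1, a Notch-like membrane protein gene, had 67 and 58 UMIs, 25.7 and 9.31 CPM, a log2 ratio of 1.46 with a lower bound of 0.94. Lgals3bp, a secreted galectin-binding glycoprotein, had 157 and 96.4 CPM, 0.70 (0.52 to 0.88), and Parp12, an interferon-inducible ADP-ribosyltransferase gene, 0.78 (0.29 to 1.27). The other higher genes were Trappc2, Naa20, Rabgef1, Fhit, Arhgap18, Dync1i1, Tpd52l1 and Ptk2b. The lowest were Rn7sk, a nuclear RNA that restrains transcription elongation, with 9.58 and 23.6 CPM and -1.30 (-1.97 to -0.68), Atxn7l3, Wdr43, the GABA receptor subunit gene Gabra4 with -0.96 (-1.63 to -0.34), the zinc carrier gene Slc30a4 with -0.71 (-1.12 to -0.32), Reep1 with -0.69 (-1.11 to -0.28), Rrh, Mmgt1, Ccbe1, Nbas, the inositol carrier gene Slc5a3 with 166 and 236 CPM and -0.50 (-0.66 to -0.35), and Epha4.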

How the data were processed

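The authors deposited UMI counts per gene and barcode for 2 libraries (10x Chromium), not normalized, with 55401 genes in each. STARsolo and GRCm38 come from the submitters' processing notes, while the version, annotation and settings are not given in the sources used here. About 10000 cells were loaded per library per the labels' protocols, against 13745 and 13995 barcodes kept.

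UMIs were summed over members per library (4901920 and 7958172, or 2609558 and 6232352 in single-type members) and divided by their total to give CPM. A sum of 0 was set to a floor of 3 UMIs. Intervals were exact at 95% (Clopper-Pearson for shares, Poisson for CPM, conditional binomial for ratios), and the ratio interval was tested on simulated data. They cover counting error, not spread between animals. Free RNA was taken from barcodes with 10 to 100 UMIs, and from 100 to 300 UMIs for the level it would give in members, at the median fraction over 12 marker lists. The same lists set the single-type members, which biases that fraction downward there. Scrublet (scanpy 1.11.5, expected rate 0.06) set its threshold so that it marked 0 of 13745 barcodes in metastasis, so doublets were not removed and an alternative left out the 6% highest scores. All 428 symbols of the gene lists were in the files. Coordinates are GENCODE M21 on GRCm38, and promoters RefSeq's.

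Named genes were the rule genes and Ttr, 6 further fixed genes, up to 3 extremes of each function list (4 for interferon and MHC class I), the 12 highest and 12 lowest ranked genes and the 10 most typical. The alternatives follow 83 genes, 80 of these and 3 outside this rule, Vcam1, Ifitm3 and Ifi27l2a. Lyz2, a marker of another cell type, was also outside it. The members and lists were chosen with earlier results of these data known. Leaving out members with melanoma genes, asking for 3 of the 4 rule genes, subtracting free RNA in single-type members, thinning to 5000 UMIs, splitting at 10000 UMIs, the ependymal percentage of free RNA and a minimum of 20 UMIs in naive alone were chosen after seeing the data.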

Additional observations from a re-analysis of the deposited data

How the results depend on the processing

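No paired analysis was possible because each group was 1 library, and no replicate could be left out for the same reason. With at least 2000 UMIs the members as a share of kept barcodes were 3.01% in metastasis and 5.33% in naive, with at most 10% mitochondrial UMIs 1.76% and 2.97%, with 4 UMIs and 0.05% of the rule genes 3.45% and 6.13%, with 16 UMIs and 0.2% 1.74% and 3.44%, and in single-type members 1.32% and 3.10%. In metastasis the share was 1.91% without members with melanoma genes and 1.89% with 3 of the 4 rule genes. Naive was the larger in each of these settings.

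Genes at least 2-fold higher in metastasis numbered 819 with the stricter rule, 239 in single-type members, 445 with each member thinned to 1000 UMIs, 2918 with no minimum, 655 without members with melanoma genes, 679 with 3 of the 4 rule genes and 494 in single-type members with free RNA subtracted. Genes at least 2-fold lower numbered 794 with the looser rule, 118 in single-type members, 384 with totals without Ttr, 444 without Ttr and mitochondrial genes, 381 with ratios centred on the median, 117 thinned, 966 and 345 with free RNA of 10 to 100 and 100 to 300 UMIs subtracted, 65 with at least 50 UMIs and 420 with no minimum. Fewer genes are measured with thinning and higher minimums.

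The medians of secreted proteins and of ion and water transport were -0.56 and -0.62 with the looser rule, -0.12 and -0.17 with the stricter, 0.0047 and -0.088 in single-type members, -0.63 and -0.67 without Ttr in the total, -0.69 and -0.72 without Ttr and mitochondrial genes, -0.63 and -0.67 centred, -0.21 and -0.19 with equal weight, -0.21 and -0.29 thinned, -0.037 and -0.092 without melanoma genes, -0.037 and -0.12 with 3 of the 4 rule genes, and 0.046 and -0.089 in single-type members with free RNA subtracted. Secreted proteins had -0.30 with free RNA of 10 to 100 UMIs subtracted. Nutrient and drug transport had -0.16 with the stricter rule, -0.012 in single-type members, -0.70 without Ttr and mitochondrial genes, -0.075 without melanoma genes, -0.077 with 3 of the 4 rule genes and -0.0075 in single-type members with free RNA subtracted.

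The interferon response median stayed above 1 in all 18 settings. It was 1.53 in single-type members, 1.52 thinned, 1.35 (10 to 100 UMIs subtracted) and 1.64 (single-type, subtracted). MHC class I and antigen processing had 0.54 in single-type members, 0.29 and 0.71 with free RNA of 10 to 100 and 100 to 300 UMIs subtracted, and 0.42 in single-type members with it subtracted. Of single genes past 2-fold in all members, some turned. With free RNA of 10 to 100 UMIs subtracted, H2-K1 was at -3.25, H2-D1 -3.52, H2-T23 -0.13, Cd74 -1.48, H2-Aa -2.20, Atf3 -3.77 and Hmox1 -0.16. With that of 100 to 300 UMIs, H2-T23 was at -1.04 and Atf3 -0.79. Thinned to 1000 UMIs, Myh11 was at 0.12 and Dlk1 -0.44, and in single-type members with free RNA subtracted Gpnmb was at -0.16. The cause of these turns was not tested. Genes with few UMIs over 182 members, such as Isg15 or Madcam1, are limited by depth.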

Other observations

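Among position genes, Hox genes, which hindbrain cells keep, had UMIs in 20 of 182 single-type members in metastasis and 36 of 434 in naive. For Hoxb3os 21 and 29 UMIs gave a ratio of 0.79 (-0.09 to 1.65), and Otx1, a forebrain gene, had 22 and 81 UMIs, -0.62 (-1.38 to 0.07).

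Among cilia genes, Ccdc153, an ependymal marker, had 13 and 86 UMIs in single-type members, with a ratio of -1.47 (-2.44 to -0.62), below the 34.2 and 70.2 CPM that free RNA would give. The 13 other measured cilia genes lay within 2-fold.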
